A study of Mus musculus with 2 samples.

Results

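Glial reactivity genes are transcripts that Müller glia and astrocytes of the retina are known to raise after injury or stress. The 10 genes described here are Lcn2, Gfap, Vim, Cd44, Serpina3n, Stat3, Socs3, Nupr1, Edn2 and Osmr. They were chosen by symbol from a fixed list, among 27998 genes listed in the deposited tables. Of the 10, 8 had at least 50 unique molecular identifiers (UMIs, each standing for 1 captured transcript) over both libraries, Osmr had 15 and Edn2 had 0.

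Dissociated cells of the peripheral retina, taken from mouse pups at postnatal day 8, were profiled in 2 libraries, 1 for each genotype. The library called DKO came from alphaCre; Rbf/f; p107-/- mice, which the labels call tumor-prone. The library called DKO_Skp2het came from mice with the same alleles plus skp2+/-, which the labels call tumor-resistant. By these labels both groups share a p107-/- background in all cells and Rb deletion where the alphaCre driver is active, and neither is wild type. The driver is known for activity in progenitors of the peripheral retina, whereas astrocytes, microglia and vessel cells enter the retina from outside. The comparison addresses the title's question of transformation capacity only through these genotypes.

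When glia are stressed, cytokines of the interleukin-6 family bind receptors that share gp130, the kinases JAK1 and JAK2 activate the transcription factor STAT3, and SOCS3 shuts the signal off again. Downstream, reactive glia are known to add intermediate filaments (GFAP, vimentin), the hyaluronan receptor CD44 and secreted proteins such as lipocalin 2 and the protease inhibitor SERPINA3N. In a healthy retina, Gfap is mainly a gene of astrocytes at the inner surface, while Vim is expressed by Müller glia and progenitors as well.

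The DKO library gave 3515 kept cells and 23313858 UMIs, with a median of 4866 UMIs per cell. The DKO_Skp2het library gave 4978 kept cells and 23869138 UMIs, with a median of 3801.5. Its shallowest barcode had 2387 UMIs, against 3420 in DKO. The libraries share 30 barcode sequences. Of the targeted genes, Skp2 stood at 80.5 CPM in DKO and 56.7 in DKO_Skp2het, a ratio of 0.705 (95% interval 0.657 to 0.756). Rb1 stood at 22.6 and 22.2 CPM (ratio 0.979, 0.866 to 1.11) and Rbl1, the p107 gene, at 32.3 and 32.2 CPM (ratio 0.999, 0.902 to 1.11). The libraries share the Rb and p107 alleles, and reads from a 3′ end that lies outside a deletion say nothing about whether the gene was lost. Levels (CPM) are UMIs of the gene per 1000000 UMIs of the cells named, ratios are DKO_Skp2het over DKO, and every interval covers counting error only. UMIs of 1 cell are not independent draws, so intervals on sums are too narrow where a few cells hold most of them. There is no replicate check for any difference, and no test was made.

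Cells were grouped without using the 10 genes. Clusters that met fixed marker lists included Müller glia-like cells (458 in DKO and 704 in DKO_Skp2het), progenitor-like cells (196 and 704), astrocyte-like cells (18 and 18), microglia-like cells (29 and 41), and rod-, cone-, bipolar- and amacrine-like cells. The Müller glia-like cells had 13 of 13 Müller glia markers detected in each library, but also 8 of 8 progenitor and 9 of 9 rod markers. Detection in a sum over many cells therefore separates types poorly. Summed levels were 7631 CPM in DKO and 8641 in DKO_Skp2het for Müller glia markers, 2445 and 2950 for progenitor markers, and 106 and 121 for rod markers. The Müller glia-like cells consisted of cluster 0 (419 and 624 cells), led by Npy and Cox4i2 with Apoe, and cluster 16 (39 and 80 cells), led by Prss56 and Col9a1. In cluster 0 the mean log2 fold was 1.35 for Müller glia markers and 1.29 for progenitor markers, with 1 Müller glia marker among its 10 leading genes. In cluster 16 the means were 3.05 and 1.85. Pdgfra, which marks retinal astrocytes and was among the markers used for naming, was detected in all 36 astrocyte-like cells. Of 8 astrocyte markers, 8 were detected there in DKO and 7 in DKO_Skp2het, where Aldh1l1 was not. The leading gene of this cluster was the hemoglobin gene Hba-a1, with 716 of 717 UMIs in 1 DKO_Skp2het cell. Rod markers stood at 106 CPM in its DKO cells and 739 CPM in its DKO_Skp2het cells. Müller glia markers stood there at 9046 and 8599 CPM, and progenitor markers at 2709 and 3438. Summed levels of these lists therefore do not separate astrocyte-like from Müller glia-like cells. Astrocyte markers stood at 4675 and 4881 CPM in astrocyte-like cells, against 65.3 and 80.8 in Müller glia-like cells. Cluster 1 (520 and 469 cells), a further cluster that carries some of the 10 genes, was led by genes of cell division such as Prc1 and Spc25. It lay nearest to progenitors and next to Müller glia, and stayed unnamed. Cluster 27 (13 and 9 cells) had 8 of 8 endothelial markers above 2-fold together with pericyte genes such as Rgs5, and also stayed unnamed.

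Since STAT3 acts on several of these genes in reactive glia, the 250 bases before each RefSeq start site (GRCm38.p6) were searched on both strands for the STAT-type motif TTCNNNGAA. All 10 genes matched the RefSeq table, and 2 of the 10 windows held the motif, Nupr1 and Socs3, against 7.02% of 32851 windows of the same length. The tighter form TTCCNGGAA stood in 0.913% of windows and in none of the 10. A match describes these letters only, and the capitals below mark it in its flanking bases on the minus strand, which is the coding strand of both genes.
Nupr1, chr7:126625580-126625608: atgggcccagTTCTGGGAAagggccagat
Socs3, chr11:117969502-117969530: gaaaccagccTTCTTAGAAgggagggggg
The first base of the match lies 128 bases before the start of Nupr1 and 154 bases before that of Socs3. In GENCODE release 21 the Nupr1 match falls within an exon of a longer Nupr1 transcript, and the Socs3 match falls in no exon of Socs3. The search also covered the AP-1 type motif TGANTCA (6.75% of windows, none of the 10) and TATAAA (12.4% of windows, Vim alone).

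Across all kept cells, the 10 genes did not move as 1 group. Cd44 was higher in DKO_Skp2het and Lcn2 and Nupr1 were lower by at least 1.5-fold on the scale of log2 (CPM + 5), which shrinks differences of low genes. Thus 1 of 8 counted genes was past this fold upward and 2 were past it downward. The same fold was passed by 0.416% of 13476 genes upward and by 0.208% downward, 0.623% in either direction. The median log2 difference of the 8 genes was -0.25, against 0.02 over all genes counted. Lcn2 and Serpina3n reached the 50-UMI minimum through DKO alone, so they had to differ, and neither the count nor the median measures the list as a whole. Of the Müller glia-like cells' transcripts, 6 members were counted, again with Cd44 past the fold upward and Lcn2 and Nupr1 past it downward. There 1.70% of 8781 genes were past it upward and 0.729% downward (2.43% in either direction), and the median was -0.03 against 0.05 for all genes. In these cells Lcn2 and Nupr1 reached the minimum through DKO alone, and Cd44 and Stat3 through DKO_Skp2het alone.

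**Figure D1:**
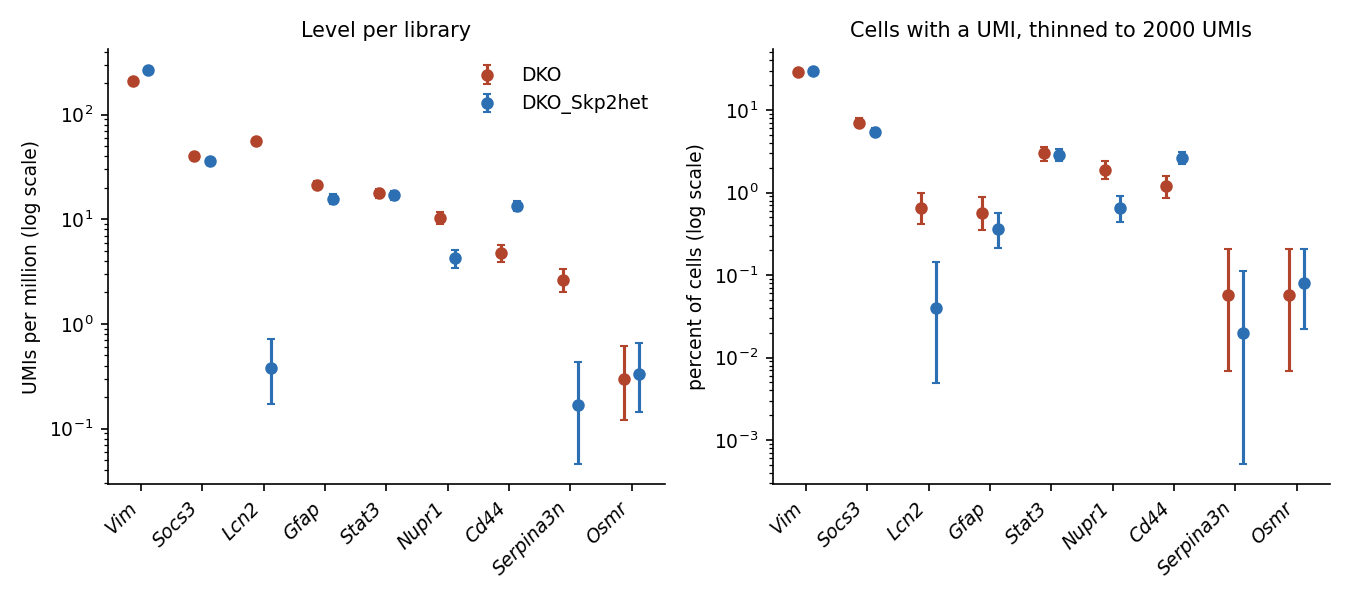
Each point is 1 library (red DKO, blue DKO_Skp2het). The left panel gives CPM with exact Poisson 95% intervals and the right panel the percent of cells with a UMI after every cell was thinned to 2000 UMIs, with exact binomial intervals; both axes are logarithmic and Edn2, at 0, is not drawn. Lcn2 spans 55.9 to 0.377 CPM although at most 0.654% of cells were positive, whereas Cd44 and Nupr1 differ in opposite directions in level and in share of cells.

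Among the upstream members, ligand and receptor were at or near the limit of detection. Edn2 encodes endothelin 2, a peptide that photoreceptors are known to release to glia after damage (chromosome 4, 120161206 to 120167360 of GRCm38). It had 0 UMIs in both libraries, which allows a share of cells with an Edn2 UMI of up to 0.0853% in DKO and 0.0603% in DKO_Skp2het and sets no limit on cells expressing the gene. Osmr encodes the oncostatin M receptor subunit that pairs with gp130 (chromosome 15, 6813577 to 6874969). It had 7 UMIs in 6 DKO cells and 8 UMIs in 8 DKO_Skp2het cells, a ratio of 1.12 (0.354 to 3.62). A difference in Osmr was not detectable at this depth.

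Stat3, the transcription factor of the pathway (chromosome 11, 100885098 to 100939540), was spread thinly over many cells. DKO had 414 UMIs in 331 cells, 1.25 per positive cell, and DKO_Skp2het had 406 UMIs in 338 cells, 1.20 per positive cell. The levels were 17.8 and 17.0 CPM, a ratio of 0.958 (0.833 to 1.10). At equal depth, meaning with each cell randomly reduced to 2000 UMIs, a Stat3 UMI was found in 2.99% (2.45 to 3.61) of DKO and 2.87% (2.43 to 3.38) of DKO_Skp2het cells. Stat3 was therefore close between the libraries in level, in share and in UMIs per positive cell.

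Its level differed more between cell types than between libraries. Microglia-like cells had 118 CPM in DKO and 73.4 in DKO_Skp2het, and astrocyte-like cells had 116 and 89.8. Müller glia-like cells had only 15.1 and 17.3, a ratio of 1.15 (0.725 to 1.84), below the 31.2 and 33.1 of cone-like cells. Of 24 clusters with at least 10 Stat3 UMIs, 11 were higher and 13 lower in DKO_Skp2het, 1 with an interval above 1 and 0 with an interval below it. Stat3 overlaps Stat5a on the other strand, and whether the counting used strand is not given in the sources used here; Stat5a itself had 22 and 8 UMIs.

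Socs3, the feedback inhibitor of the pathway and itself a STAT3 target (chromosome 11, 117966079 to 117970047), had 940 UMIs in 508 DKO cells and 851 UMIs in 500 DKO_Skp2het cells. The levels were 40.3 CPM (37.8 to 43.0) and 35.7 CPM (33.3 to 38.1), a ratio of 0.884 (0.805 to 0.971). At equal depth the positive share was 7.03% in DKO and 5.48% in DKO_Skp2het. With only cells of at least 3420 UMIs in both libraries the ratio was 0.964 (0.873 to 1.06), an interval that includes 1.

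Within cell groups Socs3 went both ways. Astrocyte-like cells had the highest level, 723 CPM in DKO and 499 in DKO_Skp2het, a ratio of 0.690 (0.531 to 0.895). Their median was 8.0 UMIs per cell in DKO (range 0 to 16) and 2.0 in DKO_Skp2het (range 0 to 24), and the ranges overlapped. In the Prss56 cluster of Müller glia-like cells Socs3 stood at 413 CPM in DKO (81 UMIs, 21 of 39 cells) and 196 CPM in DKO_Skp2het (83 UMIs, 29 of 80 cells), a ratio of 0.473 (0.344 to 0.651). In the larger Npy cluster the levels were 59.4 and 60.8 CPM, a ratio of 1.02 (0.799 to 1.31). Over all Müller glia-like cells the ratio was 0.862 (0.711 to 1.05). Without the 10 of these cells per library with the most Socs3 UMIs it was 1.05 (0.826 to 1.34). Cluster 14, led by Txnip, Myc and Klf5, was the 1 group whose interval lay above 1, at 90.8 and 124 CPM, a ratio of 1.37 (1.03 to 1.81). In all, 5 of 21 clusters with at least 10 UMIs had an interval below 1, and 1 had an interval above it.

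Lcn2 encodes lipocalin 2, an iron-siderophore binding protein secreted by reactive astrocytes and neutrophils (chromosome 2, 32384633 to 32388252). DKO had 1304 UMIs (55.9 CPM) and DKO_Skp2het had 9 (0.377 CPM), a ratio of 0.00674 (0.00308 to 0.0128). The difference rested on few cells. In DKO 43 cells were positive, of which 32 had 1 UMI and 10 had 5 or more, and those 10 cells held 97.2% of the UMIs. In DKO_Skp2het 9 cells were positive, each with 1 UMI.

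A single astrocyte-like DKO cell held 956 Lcn2 UMIs, 73.3% of the library's total and 2.73% of that cell's own 35018 UMIs. The next highest DKO cells had 71 (a progenitor-like cell), 66 (a Müller glia-like cell), 46 (cluster 9), 45 (cluster 27), 45 (an astrocyte-like cell) and 19 UMIs (an astrocyte-like cell). The last 3 of the 10 had 7, 7 and 6 UMIs, in clusters 27, 9 and 3. High Lcn2 was thus seen in scattered cells of 6 groups rather than across any of them. Without the top cell of each library 348 and 8 UMIs remained, a ratio of 0.0224 (0.00961 to 0.0447).

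Among cells with fewer than 5 Lcn2 UMIs, DKO had 36 UMIs in 33 of 3505 cells and DKO_Skp2het had 9 UMIs in 9 of 4978 cells, a ratio of 0.242 (0.103 to 0.513). Free RNA in the droplets can add such low counts, and its part here was not tested. An Lcn2 UMI was found in 3.01% of rod-like cells in DKO and 0.463% in DKO_Skp2het, at median depths of 6864.5 and 4497.5 UMIs. Of the 9 DKO_Skp2het UMIs, 7 lay in 7 of 62 cone-like cells (11.3%), where DKO had 2 in 2 of 43 cells (4.65%). In Müller glia-like cells Lcn2 had 71 UMIs in 6 DKO cells and 0 UMIs in 704 DKO_Skp2het cells, which allows a share of cells with a UMI of up to 0.426%. Against 3 counts over those cells this is at least 34.2-fold lower, but 66 of the 71 UMIs came from 1 cell and without it the bound is 2.42-fold. Neither the origin of the high cells nor whether any of them was 2 cells in 1 droplet was tested.

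The cell with 956 Lcn2 UMIs also led several other genes of this kind. It held 134 Gfap UMIs, 99 Vim UMIs, 55 Serpina3n UMIs, 14 Cd44 UMIs and 8 Stat3 UMIs, each the highest count of any kept cell. Socs3, at 7 UMIs, and Nupr1, at 3, were within the range of the other astrocyte-like cells. Among 29 other reactive glia genes in the files it had 23 detected, with 407 UMIs in all. These included 210 UMIs of Cp (ceruloplasmin), 46 of Serping1 and 40 of C3 (complement regulation and component), and 22 of Steap4 (a metalloreductase). In the other 35 astrocyte-like cells of both libraries the highest counts of these were 83, 6, 5 and 2.

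Serpina3n, a secreted serine protease inhibitor widely used as a marker of reactive astrocytes (chromosome 12, 104406729 to 104414329), followed the same cell. DKO had 61 UMIs in 4 cells and DKO_Skp2het had 4 UMIs in 4 cells, or 2.62 and 0.168 CPM, a ratio of 0.0640 (0.0169 to 0.173). Of the 61, 55 lay in the cell with 956 Lcn2 UMIs and 4 in the progenitor-like cell with 71. Without the top cell of each library the counts were 6 and 3, a ratio of 0.488 (0.0789 to 2.28), and no difference was detectable. Serpina3n belongs to a multigene family of near-identical copies, so its count is uncertain to that extent; the cell held no UMI of the other family members examined.

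**Figure D2:**
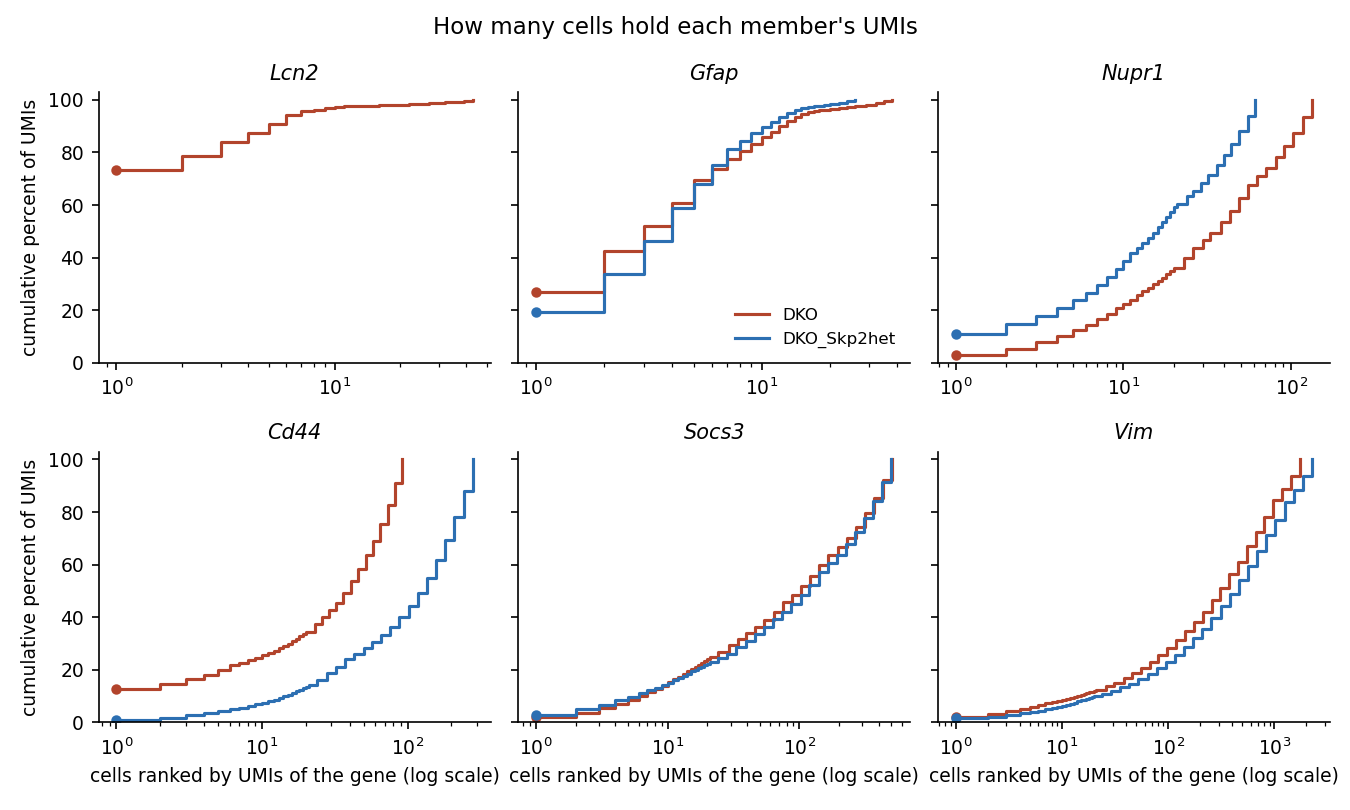
Each curve adds up the UMIs of 1 gene over cells ranked from the most to the fewest UMIs of it (logarithmic horizontal axis), as a percent of the library's UMIs of that gene; dots mark the top cell. For Lcn2 (DKO only, since DKO_Skp2het has 9 UMIs) the first cell already gives 73.3%, Gfap reaches 94.8% and 95.2% within 15 and 13 cells, and Vim, Socs3 and Cd44 build up gradually over 92 or more cells.

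Gfap, the intermediate filament of astrocytes and of reactive Müller glia (chromosome 11, 102887336 to 102900912), was also held by few cells, but by the same type in both libraries. DKO had 497 UMIs in 38 cells and DKO_Skp2het had 374 UMIs in 26 cells, or 21.3 CPM (19.5 to 23.3) and 15.7 CPM (14.1 to 17.3), a ratio of 0.735 (0.641 to 0.842). The 18 astrocyte-like cells of each library held 464 and 362 of these UMIs, which is 93.4% and 96.8%. In each library 17 of the 18 were positive.

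Per astrocyte-like cell, Gfap ranged from 0 to 134 UMIs in DKO with a median of 11.5, and from 0 to 73 in DKO_Skp2het with a median of 10.0. The groups overlapped, with 2 DKO cells (134 and 78 UMIs) above the highest DKO_Skp2het cell. Within these cells the level was 2236 CPM in DKO and 1807 CPM in DKO_Skp2het, a ratio of 0.808 (0.702 to 0.929), and 0.831 (0.707 to 0.976) without the top cell of each library. Astrocyte-like cells made up 0.512% (0.304 to 0.808) of kept cells in DKO and 0.362% (0.214 to 0.571) in DKO_Skp2het, intervals that overlap. Without them 33 and 12 Gfap UMIs remained, a ratio of 0.355 (0.167 to 0.705). With cells of at least 3420 UMIs only (3515 in DKO, 3083 in DKO_Skp2het), the ratio over all cells was 0.946 (0.825 to 1.08). At equal depth the ratio of the thinned sums was 0.474 (0.332 to 0.670). The positive shares were then 0.569% (0.348 to 0.877) in DKO and 0.362% (0.214 to 0.571) in DKO_Skp2het. The size of the Gfap difference thus depended on how depth was levelled.

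Outside astrocyte-like cells Gfap was close to absent. Müller glia-like cells had 17 UMIs in 5 of 458 DKO cells, of which 13 lay in 1 cell of the Prss56 cluster, and 5 UMIs in 2 of 704 DKO_Skp2het cells. The ratio was 0.203 (0.0587 to 0.574), and 0.173 (0.00351 to 1.74) on 4 and 1 UMIs without the top cell of each library. No broad Gfap signal was seen in the Müller glia-like cells of either library.

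Vim (vimentin, chromosome 2, 13573927 to 13582826) was the most abundant and most widely detected member. DKO had 4926 UMIs in 1730 of 3515 cells, 2.85 per positive cell, and DKO_Skp2het had 6351 UMIs in 2251 of 4978 cells, 2.82 per positive cell. The levels were 211 CPM (205 to 217) and 266 CPM (260 to 273), a ratio of 1.26 (1.21 to 1.31). At equal depth the positive shares were 28.7% (27.2 to 30.3) and 30.2% (29.0 to 31.5), and the ratio of the thinned sums was 1.09 (1.02 to 1.16). The top 1% of cells held 16.5% and 16.1% of the UMIs.

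Vim differed by cell type in direction. It stood in Müller glia-like cells at 367 CPM in DKO and 463 CPM in DKO_Skp2het, a ratio of 1.26 (1.16 to 1.38), with 44.3% and 49.7% of cells positive at equal depth. In astrocyte-like cells the levels were 1562 and 1332 CPM, a ratio of 0.853 (0.723 to 1.01), and 0.989 (0.818 to 1.19) without the top cell of each library. In rod-like cells it was lower in DKO_Skp2het, 62.1 against 34.8 CPM, a ratio of 0.561 (0.385 to 0.806), and likewise in cone-like cells, 69.7 against 26.5 CPM, a ratio of 0.379 (0.201 to 0.681). Photoreceptors are not known as Vim-expressing cells, and at equal depth 15.1% of rod-like cells in DKO and 7.41% in DKO_Skp2het had a UMI. Of 27 clusters with at least 10 Vim UMIs, 9 had an interval above 1 and 4 an interval below 1.

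**Figure D3:**
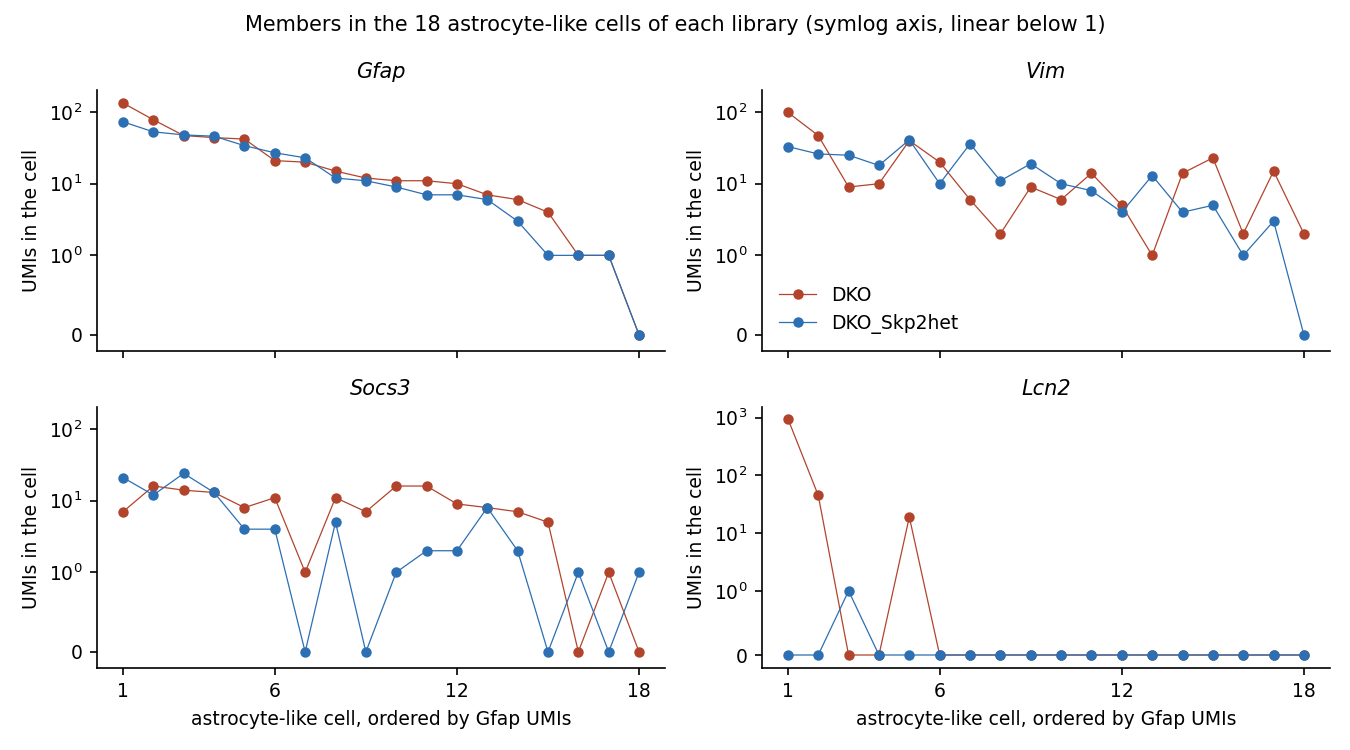
Each dot is 1 astrocyte-like cell, 18 per library (red DKO, blue DKO_Skp2het), ordered within its library by Gfap UMIs; the vertical axis gives UMIs of Gfap, Vim, Socs3 or Lcn2 in the cell, logarithmic above 1. Gfap and Vim overlap between the libraries apart from the 2 top DKO cells, at 134 and 78 UMIs of Gfap and 99 and 47 of Vim, while Lcn2 is above 1 UMI in 3 DKO cells (956, 45 and 19) and in no DKO_Skp2het cell.

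Cd44 encodes the hyaluronan receptor of the cell surface (chromosome 2, 102811141 to 102901665), which Müller glia carry on their apical microvilli. It was the 1 member past 1.5-fold upward. DKO had 110 UMIs in 92 cells (4.72 CPM, 3.88 to 5.69) and DKO_Skp2het had 322 UMIs in 281 cells (13.5 CPM, 12.1 to 15.0), a ratio of 2.86 (2.30 to 3.58). The difference lay in the number of positive cells, with 1.20 UMIs per positive cell in DKO and 1.15 in DKO_Skp2het. The share of positive cells at equal depth was 1.19% (0.862 to 1.61) in DKO and 2.65% (2.22 to 3.14) in DKO_Skp2het.

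No DKO_Skp2het cell had more than 3 Cd44 UMIs. The DKO total included 14 UMIs of the cell with 956 Lcn2 UMIs, and without the 10 cells of each library with the most Cd44 UMIs the ratio was 3.55 (2.77 to 4.59). The higher level was thus carried by many cells with 1 or 2 UMIs, the opposite of the pattern of Lcn2.

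Among Müller glia-like cells, Cd44 had 36 UMIs in 35 of 458 DKO cells (17.0 CPM) and 140 UMIs in 116 of 704 DKO_Skp2het cells (45.8 CPM), a ratio of 2.69 (1.85 to 3.99). Both Müller glia-like clusters showed it, at 14.6 and 34.2 CPM in the Npy cluster (ratio 2.34, 1.52 to 3.72) and 40.8 and 118 CPM in the Prss56 cluster (ratio 2.89, 1.36 to 7.05). Unnamed cluster 1 had 27 and 81 UMIs, 9.92 and 33.2 CPM, a ratio of 3.35 (2.15 to 5.39). In progenitor-like cells the counts were 7 and 39, a ratio of 1.96 (0.868 to 5.20), whose interval includes 1. Of 7 clusters with at least 10 UMIs, 6 were higher in DKO_Skp2het.

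The exception was the astrocyte-like cluster, with 18 UMIs in DKO and 5 in DKO_Skp2het, a ratio of 0.288 (0.0835 to 0.804). There 14 of the 18 came from the cell with 956 Lcn2 UMIs, and without the top cell of each library 4 and 3 UMIs remained. For comparison, 1 of 166 rod-like cells in DKO (0.602%) and 3 of 216 in DKO_Skp2het (1.39%) had a Cd44 UMI. These shares were well below the 7.64% and 16.5% of Müller glia-like cells, whose median depths were 4238.5 and 4052 UMIs.

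Nupr1, which encodes a small stress-induced chromatin protein also called p8 (chromosome 7, 126623249 to 126630861), went the other way. DKO had 241 UMIs in 133 cells (10.3 CPM, 9.07 to 11.7) and DKO_Skp2het had 101 UMIs in 61 cells (4.23 CPM, 3.45 to 5.14), a ratio of 0.409 (0.321 to 0.518). UMIs per positive cell were 1.81 and 1.66, so the number of positive cells carried most of the difference. At equal depth 1.91% (1.48 to 2.41) and 0.643% (0.440 to 0.906) of cells were positive. The highest cells had 7 UMIs in DKO and 11 in DKO_Skp2het, the latter an astrocyte-like cell with 10.9% of its library's Nupr1.

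In Müller glia-like cells the counts were 101 UMIs in 60 DKO cells (47.8 CPM) and 36 UMIs in 21 DKO_Skp2het cells (11.8 CPM), a ratio of 0.246 (0.164 to 0.364). Without the 10 cells of each library with the most Nupr1 UMIs the ratio was 0.117 (0.0558 to 0.224). At equal depth 7.42% (5.20 to 10.2) and 1.85% (0.987 to 3.14) of these cells were positive. Progenitor-like cells had 22 and 4 UMIs, a ratio of 0.0640 (0.0160 to 0.189). Of the 22, 1 cell held 7 and another 5, and the first was the cell with 71 Lcn2 UMIs. At equal depth 2.55% (0.833 to 5.85) and 0.284% (0.0344 to 1.02) of progenitor-like cells were positive, with overlapping intervals. Cluster 1 had 52 and 13 UMIs, a ratio of 0.279 (0.140 to 0.520). Astrocyte-like cells, with the highest level, had 149 and 125 CPM, a ratio of 0.835 (0.473 to 1.46). All 5 clusters with at least 10 UMIs were lower in DKO_Skp2het, 3 of them with an interval below 1.

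**Figure D4:**
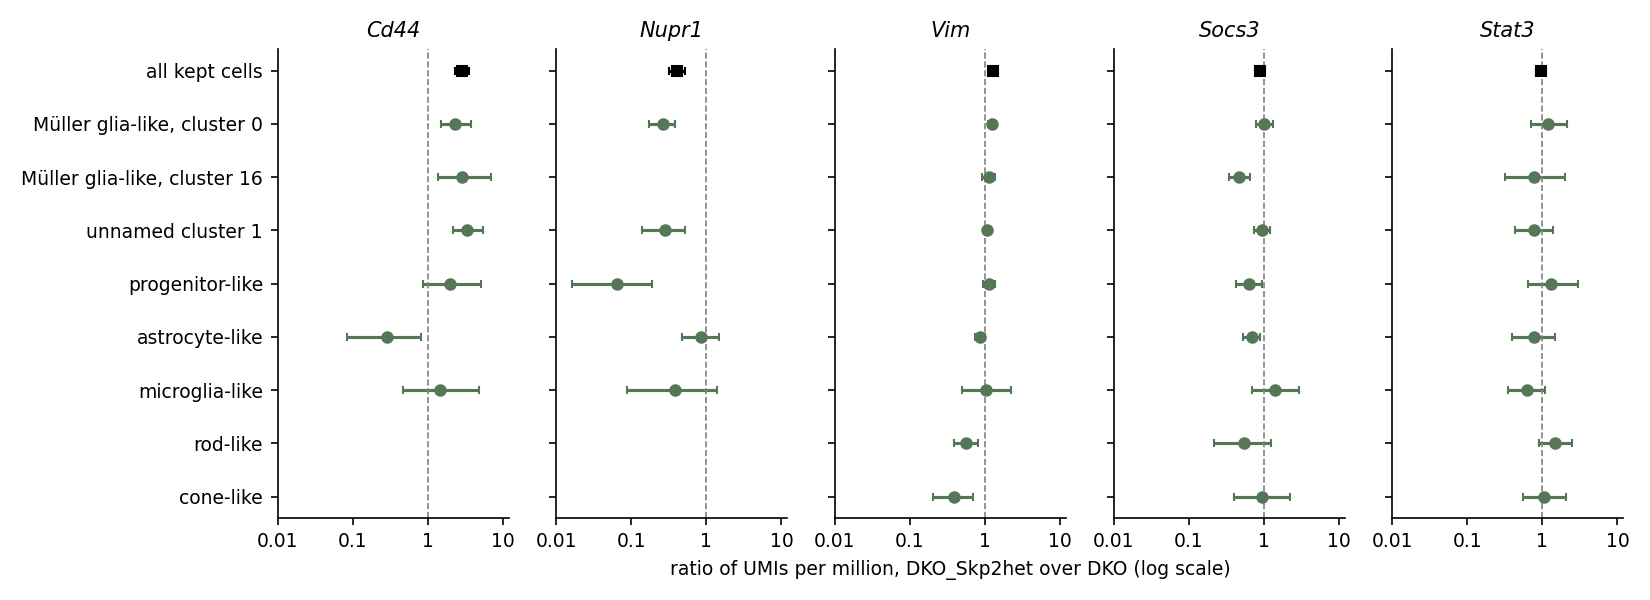
Ratio of CPM in DKO_Skp2het over DKO (logarithmic axis, dashed line at 1) for 5 members in all kept cells (square) and in named groups or clusters (dots), with exact 95% counting intervals; groups with fewer than 10 UMIs or with 0 in a library are left out. Cd44 lies right of 1 in both Müller glia-like clusters and in cluster 1, Nupr1 lies left of 1 in the Npy cluster, cluster 1 and progenitor-like cells, and Stat3 intervals include 1 in all groups drawn.

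The members were seldom detected together in 1 Müller glia-like cell. At equal depth 3 members were found in 10 of 458 cells in DKO (2.18%, 1.05 to 3.98) and in 12 of 704 in DKO_Skp2het (1.70%, 0.884 to 2.96), and no such cell had more. In astrocyte-like cells 66.7% (41.0 to 86.7) and 61.1% (35.7 to 82.7) had 3 or more. Cd44 was found in 12 of 82 DKO_Skp2het Müller glia-like cells with a Socs3 UMI (14.6%, 7.80 to 24.2) and in 45 of 622 without one (7.23%, 5.33 to 9.56), and the intervals overlap. Nupr1 was found in 0 of 82 of these cells with Socs3 (interval up to 4.40%) and in 13 of 622 without it (2.09%, 1.12 to 3.55), and these intervals overlap too.

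Genes of the same pathway from a longer list, chosen with these data known, stayed close to the background. Over all 13476 genes counted, 55.7% were above 0. Of 25 genes of gp130 receptors, JAK-STAT signalling and its ligands, 18 had 50 UMIs, 10 were above 0 and 8 below, none was past 1.5-fold, and the median log2 difference was 0.01. Socs2, another feedback inhibitor of the pathway, had 134 and 105 CPM (ratio 0.789, 0.748 to 0.831). The median of 21 counted genes among other reactive glia genes was -0.03, with 10 above and 11 below 0 and none past the fold. They included B2m, the light chain of MHC class I, at 137 and 194 CPM (ratio 1.42, 1.36 to 1.48), and the chemokine gene Ccl2 at 5.23 and 2.22 CPM (ratio 0.424, 0.301 to 0.590).

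The median log2 difference was 0.19 for 3 counted genes of the endothelin system, with Ednrb, the endothelin receptor of glia, at 6.05 and 7.58 CPM (ratio 1.25, 1.00 to 1.57). For 9 partners of intermediate filaments and of the hyaluronan receptor it was 0.09, with Krt18 at 4.07 and 7.16 CPM (ratio 1.76, 1.36 to 2.28). Krt18 was among the leading genes of the cone-like cluster and had only 1 and 3 UMIs in Müller glia-like cells. For 8 stress response genes set beside Nupr1 the median was -0.11, with 7 below 0, among them Gdf15 at 6.18 and 4.11 CPM (ratio 0.665, 0.509 to 0.865). The 1 above 0 was Hmox1 (ratio 1.48, 1.09 to 2.01). In Müller glia-like cells only 2 of these 8 genes were counted, both above 0, with a median of 0.21. For 12 dissociation and immediate early genes, which papain digestion can raise, the median over all kept cells was 0.23. Of these, 11 were above 0, against 55.7% of all genes counted, and Jun stood at 368 and 509 CPM. The part of dissociation in the Socs3 and Nupr1 values was not tested.

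Within Müller glia-like cells, most genes of mature Müller glia were higher in DKO_Skp2het, as Cd44 was. Over 15 Müller glia homeostasis genes the median log2 difference was 0.21, with 12 above 0 and 4 past 1.5-fold upward. Over all 8781 genes counted in these cells the median was 0.05, 59.0% were above 0 and 1.70% were past that fold upward. All 4 genes past the fold reached the 50-UMI minimum through DKO_Skp2het alone, which favours higher values there. Their count therefore does not measure the list as a whole. Most genes of the list, among them Aqp4, Clu, Abca8a and Kcnj10, were also markers used to name the Müller glia-like clusters. The water channel gene Aqp4 had 15 and 59 UMIs (7.09 and 19.3 CPM, ratio 2.72, 1.52 to 5.16), Clu had 21 and 72 UMIs (ratio 2.37, 1.44 to 4.06) and Abca8a had 36 and 111 UMIs (ratio 2.13, 1.45 to 3.20). Kcnj10, the potassium channel gene, stood at 36.9 and 29.4 CPM (ratio 0.798, 0.583 to 1.09). Whether the share of mature cells within the class moves Cd44 was not tested.

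Profiles over 24 clusters with at least 20 cells in each library, 48 profiles in all, were used to describe which of 11235 genes lay closest to each member. The astrocyte-like cluster has fewer cells and is not among them, so the profiles of Lcn2 and Gfap leave out the cells that hold most of their UMIs. Cd44 lay closest to Oaf (Pearson r 0.912), Sparc (0.911) and Sardh (0.900), and Vim to Tnfaip6 (0.907), Nrarp (0.887) and Nr2e1 (0.887). Socs3 lay closest to the immediate early and stress genes Atf3 (0.849), Dusp6 (0.842) and Dnajb1 (0.803). Nupr1 lay closest to Ifitm3 (0.757), Klf2 (0.730) and Zfp36 (0.730), and Stat3 to Smap2 (0.698), with no close neighbour. The profiles of 1 library share its depth and cells of 1 sample, so these values are descriptions.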

How the data were processed

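The authors deposited, for each library, an unnormalized table of UMI counts by gene and cell barcode. Cell Ranger 2.2.0 and the mm10 build are named in the submitters' processing notes. The labels name a papain digest and the 10x 3′ v2 kit. How the authors filtered barcodes, and how many animals went into a library, is not stated in the labels. Of 27998 gene identifiers, 27722 matched GENCODE release 21, which gave coordinates on GRCm38.

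A barcode had to show 500 or more genes and no more than 20% mitochondrial UMIs (1 DKO and 2 DKO_Skp2het barcodes failed). Doublet scores followed Scrublet's method (2 simulated doublets for every cell). The highest-scoring barcodes were dropped at 0.8% for every 1000 barcodes in the deposited table, 105 and 216. After scaling to 10000 UMIs and a log transform, 2000 variable genes, from which cell cycle genes and the 10 members had been taken out, gave 30 principal components, 15 neighbours and Leiden clusters at resolution 1.0 (29 clusters; scanpy 1.11.5, leidenalg 0.10.2, scikit-learn 1.9.0, numpy 2.4.6, igraph 0.11.9, scipy 1.17.1, Python 3.11.15, pandas 2.3.3, matplotlib 3.10.9). A cluster was named from lists of 19 cell types when its markers averaged a log2 fold of at least 1, at least 3 were above 2-fold, and the type had at least 1 marker, and more than any other type, among the 10 leading genes. These naming thresholds were chosen with the data in view.

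Counts were summed per library and population. CPM ratios carry exact conditional binomial, sums exact Poisson and shares exact Clopper-Pearson 95% intervals. "At equal depth" means that every cell was randomly thinned to 2000 UMIs; no kept cell was shallower. A fold against 0 uses 3 counts over the library's cells of the population. Log2 differences use a pseudocount of 5 CPM and features with at least 50 UMIs. With 1 library per genotype no test was run; the code was tested on simulated data. Named were all 10 members, the targeted genes Skp2, Rb1 and Rbl1, up to 3 genes higher and 3 lower from each of 7 gene lists, by size of the log2 difference, the 3 genes most like each member with at least 200 UMIs, and genes of the cell with the most Lcn2 UMIs. Stat5a was added after its values were seen. The members and lists were chosen with earlier results of these data known. Promoter windows came from RefSeq (GRCm38.p6). Some results for genes of these lists are left out here.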

Additional observations from a re-analysis of the deposited data

Results flagged for a closer look

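Vim differed in direction between cell types, with a CPM ratio of 1.26 in Müller glia-like cells against 0.379 in cone-like and 0.561 in rod-like cells, each with an interval that excludes 1. Cd44 did so too, at 2.69 in Müller glia-like and 0.288 in astrocyte-like cells, where 14 of 23 UMIs came from 1 cell. With 1 library per genotype neither difference was tested. In the 216 DKO_Skp2het barcodes removed as likely doublets, which enter no comparison, Stat3 stood at 23.8 CPM (45 UMIs), above the 17.0 CPM of the kept cells of that library.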

How the results depend on the processing

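The number of members past 1.5-fold over all kept cells was 3, and stayed between 2 and 4 except with a pseudocount of 20 CPM, where it was 1. In Müller glia-like cells it was 3, and between 2 and 4 under every alternative run. The median log2 difference over all kept cells, -0.25, was -0.0561 with only cells of at least 3420 UMIs, -0.0917 without the 10 cells per library with the most UMIs of each member, and -0.0557 without microglia-, astrocyte- and endothelial-like cells (no cluster was named endothelial-like). Under alternatives chosen after seeing the data it was -0.0630 without astrocyte-like cells and -0.0364 without astrocyte- and microglia-like cells and cluster 27. The ratio of Cd44 over all kept cells stayed between 2.28 and 3.55 and that of Nupr1 between 0.305 and 0.452. The ratio of Gfap in Müller glia-like cells turned to 1.20, on 3 and 5 UMIs, at clustering resolution 2.0. At resolution 0.5 the name Müller glia-like covered only 35 and 73 cells, and there Socs3 had a ratio of 0.505 (0.495 with doublets kept). Depth limits Osmr, Edn2 and, without 1 cell, Serpina3n. No paired analysis was possible because each genotype has 1 library.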
